A study of Mus musculus with 8 samples.

Results

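Mural cells, the pericytes of capillaries and the smooth muscle cells of arterioles, sit on the outer side of the endothelial tube, and the single-cell data of the Setd1a mouse study name no cell type for them. The 10 genes described here (Pdgfrb, Notch3, Kcnj8, Abcc9, Vtn, Myl9, Acta2, Tagln, Myh11 and Des) are classical genes of these cells, taken by symbol from the 31053 genes of the matrices. All 10 were found once, and all 10 passed the filter on low counts in each comparison of libraries. They were followed through the 23687 annotated cells of 8 libraries, and above all through the 3560 cells that the authors annotated as endothelial, 1562 in the prefrontal cortex (PFC) and 1998 in the striatum.

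The libraries came from male C57BL/6N mice, given in the labels as 8 to 10 weeks old and in the methods at another age, with no treatment. There were 2 WT and 2 Setd1a+/- libraries per tissue, and each pooled the tissue of 2 mice. The Setd1a+/- mice carried a germline frameshift mutation in 1 allele, made by CRISPR-Cas9 injection of zygotes, taken from 1 selected mutation and backcrossed to C57BL/6N, and the WT mice were littermates. The labels call the striatal tissue NAc, and the results of the study describe it as dorsal and ventral striatum. Tissue was digested with papain, longer for the striatum than for the PFC, and debris was removed on a density gradient.

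Pericytes are recruited to vessels by platelet-derived growth factor B from the endothelium, which acts on the receptor Pdgfrb, and smooth muscle cells are kept in their state by Notch3, the receptor for endothelial Jagged ligands. Pericytes of the brain express an ATP-sensitive potassium channel, made of the pore subunit Kir6.1 (Kcnj8) and the sulfonylurea receptor SUR2 (Abcc9), and the matrix protein vitronectin (Vtn). Smooth muscle cells carry the contractile set: smooth muscle actin (Acta2), transgelin (Tagln), smooth muscle myosin heavy chain (Myh11), the regulatory light chain Myl9 and the intermediate filament desmin (Des), with Myl9 and Des also found in pericytes.

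In GRCm38.p6 the 2 channel genes are neighbors on chromosome 6, Kcnj8 at chr6:142564837-142571614 and Abcc9 at chr6:142587862-142702766, both on the minus strand, with 16.2 kb and 0 annotated RefSeq genes between them. Abcc9, Tagln, Notch3 and Des overlap a gene on the opposite strand in GENCODE, the protein-coding one being Pcsk7 over Tagln, and without strand in the counting their reads cannot be told apart.

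Genes of the contractile set are known targets of serum response factor, which binds the CArG box, CC and GG around 6 bases of A or T. RefSeq promoter sequences were matched for 7 of the 10 members (those of Pdgfrb, Tagln and Myh11 are named only), and the 250 bases before the start given in that promoter table were searched on both strands. For Kcnj8, Vtn and Des this start is the 5′ end of the RefSeq gene span. For the others it lies inside the span, so that the window of Abcc9 lies wholly, that of Acta2 mostly, and those of Myl9 and Notch3 in part within the annotated gene. A box with at most 1 G or C in its core was present in 2 of the 7, Acta2 and Myl9, and in 8.59% of 32851 promoter windows of that length, and a box without deviation in 1 of the 7, Myl9, and in 1.47% of the windows. These matches are shown because both genes are contractile members, with 10 bases on each side, read 5′ to 3′ on the gene's strand, the box in capitals.
Acta2, chr19:34255438-34255467, minus strand, 84 bases before that start: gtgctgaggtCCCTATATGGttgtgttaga
Acta2, chr19:34255388-34255417, minus strand, 34 bases before that start: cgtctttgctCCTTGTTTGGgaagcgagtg
Myl9, chr2:156775293-156775322, plus strand, 161 bases before that start: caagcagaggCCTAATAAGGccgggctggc
Myl9, chr2:156775355-156775384, plus strand, 99 bases before that start: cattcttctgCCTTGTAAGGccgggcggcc
Both boxes of Acta2 held 1 G or C in the core, as did the box of Myl9 nearer its start, and both boxes of Acta2 lie within its RefSeq gene span at chr19:34240336-34255585. The windows of Kcnj8, Abcc9, Vtn, Notch3 and Des held no such box, which says only that these letters are not in the window. The Notch effector word TGGGAA was present in 3 of the 7 windows, those of Abcc9, Vtn and Acta2, and in 21.6% of all windows.

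The values are counts of unique molecular identifiers (UMIs), each standing for 1 captured transcript molecule, and CPM is a gene's share of the UMIs of the same cells in a library, scaled to a total of 1000000. The libraries held 15154268 to 26277553 UMIs, and the median annotated cell held 2302.5 to 3042. Setd1a itself stood at 8.45 and 11.2 CPM (WT) and 5.59 and 9.33 CPM (Setd1a+/-) over the annotated cells of the PFC, and at 13.4 and 15.2 CPM against 9.16 and 12.5 CPM in the striatum, on 46 to 206 UMIs per library. In the endothelial-annotated cells of the PFC, Setd1a was at 8.52 and 13.3 CPM (WT) and 6.76 and 14.5 CPM (Setd1a+/-). In those of the striatum it was at 14.5 and 19.1 CPM (WT) and 7.71 and 12.7 CPM (Setd1a+/-). These endothelial values rest on 6 to 29 UMIs per library. Reads come from the 3′ end of transcripts and cannot show the frameshift itself. Pairs of libraries shared 1 to 24 cell barcodes, where independent draws would give 4.47 to 23.9, and 4 endothelial barcodes in all. Each of 10 endothelial markers (Cldn5, Pecam1, Flt1, Ly6c1, Cdh5, Tek, Slco1a4, Itm2a, Emcn and Kdr) had its highest mean CPM in the endothelial-annotated cells in both tissues. The authors named the clusters from marker genes in the same cells, so this is no check of the label.

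All 10 mural cell genes had their highest mean CPM in the endothelial-annotated cells, of 8 cell types in the PFC and of 10 in the striatum. Between 86.4% and 95.1% of the UMIs of 9 members in annotated cells came from this group, which was 3560 of the 23687 cells, and for Tagln it was 49.8%. CPM is not divided by transcript length, and 3′ counting gives each molecule 1 tag, so the order of genes is an order of captured molecules. Vtn was by far the most abundant, at 1322 to 1948 CPM over the 8 libraries, found in 50.8% to 67.6% of the cells. Myl9 followed at 483 to 831 CPM. The receptor Pdgfrb at 163 to 248 CPM, Kcnj8 at 126 to 386 CPM and Abcc9 at 138 to 184 CPM did not separate from one another by more than their spread over libraries. Notch3 lay lower, at 69.1 to 110 CPM, in 13.4% to 23.2% of the cells. Acta2 at 23.0 to 72.7 CPM, Des at 8.26 to 55.1 CPM, Myh11 at 23.5 to 36.9 CPM and Tagln at 3.00 to 23.7 CPM overlapped in range, and Tagln rested on as few as 4 UMIs in a library. Droplets with 100 UMIs or fewer give the level of free RNA, and in them Vtn stood at 87.6 to 263 CPM and Acta2 at 1.20 to 6.82 CPM. The annotated cells outside the endothelial group lay below those droplets for Vtn, at 6.14 to 24.8 CPM.

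**Figure D1:**
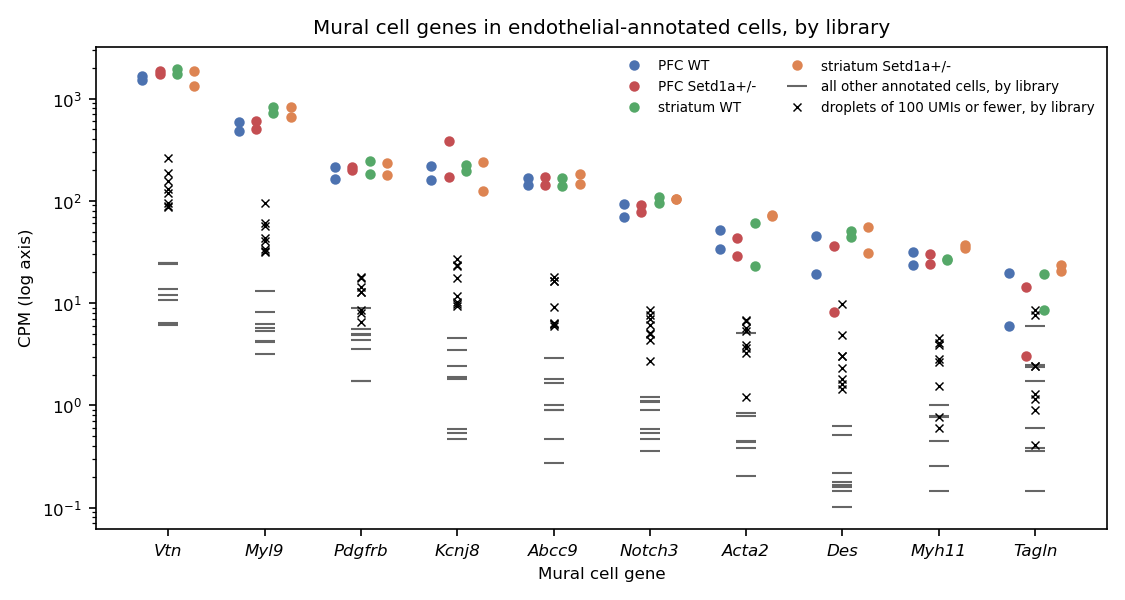
CPM (log axis) of each mural cell gene in endothelial-annotated cells, 1 colored point per library and group, with bars for all other annotated cells and crosses for droplets of 100 UMIs or fewer (libraries at 0 are not drawn). Vtn sits between 1322 and 1948 CPM in the endothelial group, and Tagln, the lowest gene, between 3.00 and 23.7 CPM. Across libraries the Tagln range overlaps those of the other cells (up to 5.93 CPM) and droplets (up to 8.61 CPM). Within each library its endothelial value lies above both, at least 3.42 times the other cells.

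Outside the endothelial group, some members were also counted in microglia and astrocytes. Microglia held more Vtn than Pdgfrb, 201 against 15 UMIs in the PFC and 169 against 15 in the striatum, with 38 and 23 UMIs of Kcnj8 and 54 and 42 of Myl9. These came from few cells, Vtn from 28 of 482 in the PFC and 20 of 271 in the striatum, and the share of each gene varied between libraries (Kcnj8 at 1 UMI beside 64 of Vtn in striatal WT replicate 2 and at 10 beside 42 in replicate 1), so that ratios of the members are not given for microglia. Acta2 and Tagln were at 0 and Myh11 at 1 UMI in PFC microglia. The microglia-annotated cells were also the second highest for all 10 endothelial markers in both tissues, for example 195 CPM of Cldn5 against 1741 CPM in the PFC. In astrocytes the receptor Pdgfrb was at 60.5 ± 34.1 CPM (SD, n = 4 libraries) in PFC astrocytes and at 55.7 ± 24.5 in striatal astrocytes, found in 12.6% and 13.5% of the cells, while Vtn was found in 1.62% and 2.92%. Median depth was 2026 and 1974 UMIs in astrocytes and 2368 and 2379 in endothelial cells. Droplets of 100 UMIs or fewer held 6.57 to 18.1 CPM of Pdgfrb. PFC Setd1a+/- replicate 1 astrocytes, at 17.1 CPM, lay near the 14.2 CPM of their library's droplets, and the other 7 libraries' astrocytes lay at 21.2 to 99.0 CPM. Astrocytes held 78 Pdgfrb and 66 Vtn UMIs in the PFC and 133 and 73 in the striatum, where endothelial cells held 844 and 7527, and 1213 and 9919. The astrocyte Vtn UMIs came from few cells, all 20 of PFC Setd1a+/- replicate 1 (beside 2 of Pdgfrb) from 1 cell, and 50 of the 73 striatal ones from Setd1a+/- replicate 1, so that their ratio is not given for astrocytes either. By library the percent of astrocytes with Pdgfrb was 3.17 to 17.7 in the PFC and 3.23 to 15.9 in the striatum, the 2 lowest being the libraries with 63 and 31 astrocytes. Acta2 was listed at 58 UMIs in striatal astrocytes and 0 in PFC astrocytes, and 45 of the 58 came from 1 library, Setd1a+/- replicate 1 (18 of its 354 astrocytes). As a level it was at 8.58 and 6.11 CPM (WT) and 50.7 and 53.1 CPM (Setd1a+/-), the last on 5 UMIs in 3 of 31 cells. No test and no count over all genes was made in astrocytes, so nothing is read from these values.

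Within the endothelial group, the cells did not carry the members evenly. Of the 3560 cells, 1035 (29.1%) had no UMI of any of the 10 genes, the count then fell to 312 cells (8.76%) with 2 genes, and rose again to 570 cells (16.0%) with 4 genes and 481 (13.5%) with 5. At least 3 members were found in 1782 cells (50.1%), called member-rich here. The cut runs through a continuous score, with 312 cells just below it at 2 genes and 436 just above it at 3. The highest counts were 9 and 10 genes, in 1 cell each. When 1000 UMIs were drawn from each cell, the second peak flattened to 16.3% of cells at both 2 and 3 genes, and 28.1% had at least 3. In all other annotated cells 64 of 20127 had at least 3 members, 0.318% (95% Wilson interval 0.249 to 0.406), and the shares were highest in microglia at 3.73% in the PFC and 3.69% in the striatum, and in striatal astrocytes at 1.63%. Intervals of this kind cover counting error alone.

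**Figure D2:**
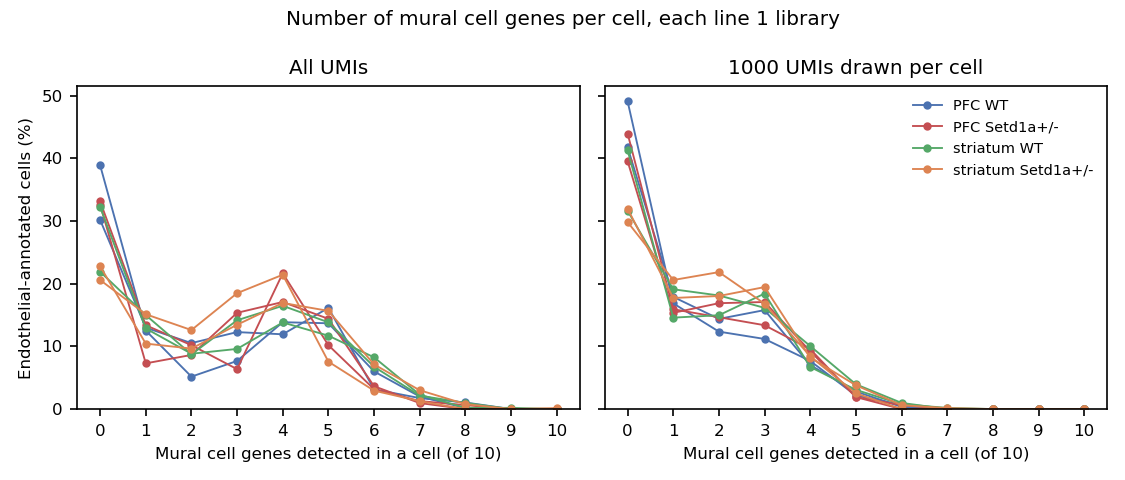
Percent of endothelial-annotated cells (vertical) by the number of mural cell genes detected in the cell (horizontal), each line 1 library colored by group, with all UMIs at left and 1000 UMIs drawn per cell at right. With all UMIs a first peak lies at 0 genes and a second at 3 to 5 genes, and over all cells 29.1% stand at 0, 8.76% at 2 and 16.0% at 4.

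The share of member-rich cells was 43.4% and 46.3% in PFC WT, 51.4% and 43.3% in PFC Setd1a+/-, 54.4% and 46.1% in striatal WT and 57.1% and 51.7% in striatal Setd1a+/- libraries. The genotypes overlapped in both tissues. Within replicate numbers the share was higher in Setd1a+/- in both striatal pairs and in the first PFC pair, and lower in the second PFC pair. No paired test was made. The difference of Setd1a+/- minus WT was 2.52 percentage points in the PFC (exact permutation test over libraries, two-sided p = 1) and 4.18 in the striatum (exact p = 0.667). With 2 libraries against 2 the exact test cannot go below 0.333. The PFC libraries averaged 46.1% ± 3.81 (SD, n = 4) and the striatal ones 52.3% ± 4.72 (SD, n = 4), a difference of -6.19 points (exact permutation p = 0.114, adjusted p = 0.343 over the 3 comparisons). None of the 3 differences passed the exact test. A lower share of such cells and less RNA of these genes per cell cannot be told apart by a cut on detection. The genotype differences turned with the choice of genes: with Vtn and Myl9 left out of the count they were -4.37 points in the PFC and -3.45 in the striatum. Without PFC Setd1a+/- replicate 1 the PFC difference was -1.55 points.

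Member-rich cells carried the other mural markers and kept the endothelial ones. The 14 other mural markers, among them Rgs5, Higd1b, Cspg4, Ndufa4l2 and Atp13a5, summed to 8023 to 10014 CPM in member-rich cells. In cells with no member they summed to 725 to 1116 CPM. The sum in member-rich cells was 7.64 to 11.1 times higher and higher in 8 of 8 libraries. Single markers could be low in a library: in member-rich cells Ndufa4l2 ran from 128 to 984 CPM (median 889). Cox4i2 ran from 11.2 to 356 CPM there (median 325). The 10 endothelial markers summed to 13432 to 19078 CPM in member-rich cells and to 15390 to 29059 CPM in cells with none, 0.653 to 0.873 times as high and lower in 8 of 8 libraries. At least 3 of the 10 endothelial markers were found in 97.3% to 100% of the member-rich cells of a library, and 16 of the 1782 had at most 1. The smooth muscle markers summed to 1.38 to 1.90 times more in member-rich cells, higher in 8 of 8 libraries. Their sums were lowest in both replicate 1 libraries of the PFC, at 853 and 1170 CPM in member-rich cells, against 2131 to 2679 CPM in the other 6. The same libraries were lowest in cells with no member, at 448 and 848 CPM against 1292 to 1622 CPM. Much of the sum was Crip1, at 159 to 1875 CPM in member-rich cells and 134 to 1133 CPM in cells with none. Singly, Smtn was higher in 4 of 8 libraries, Tpm1 in 6 and Cnn1 in 2. The 6 fibroblast markers summed to 98.6 to 216 CPM against 0 to 55.2 CPM. The 6 microglia and macrophage markers summed to 17.7 to 345 CPM against 8.95 to 119 CPM, 0.637 to 7.82 times as high by library and higher in 6 of 8. Member-rich cells were deeper, with a median of 2175 to 3652 UMIs by library against 1704 to 2117. No doublet caller was named in the methods or run here, and the part of doublets in these profiles was not tested.

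**Figure D3:**
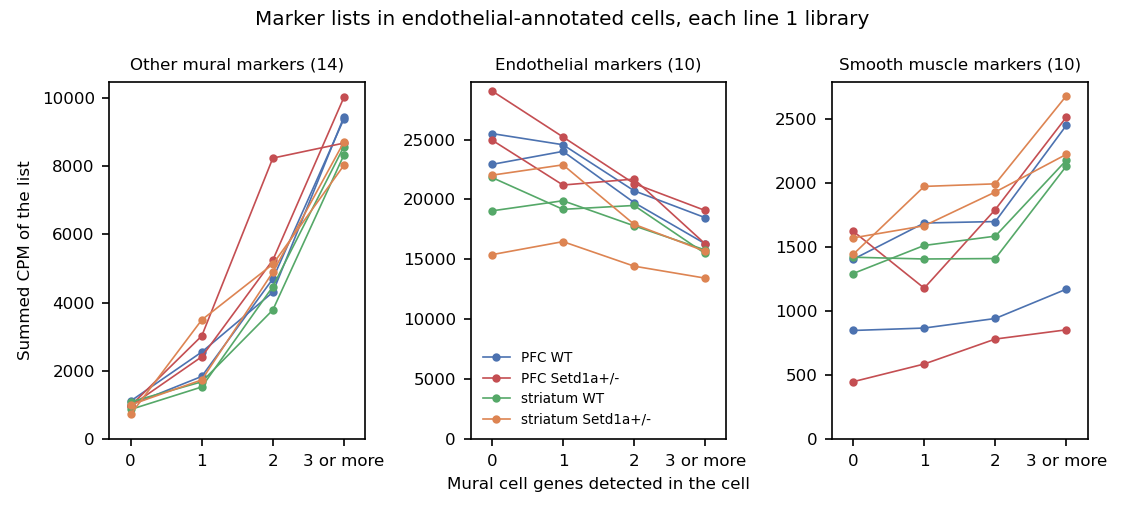
Summed CPM of 3 marker lists (vertical, each from 0) in endothelial-annotated cells by the number of mural cell genes detected in the cell (horizontal), each line 1 library colored by group. The other mural markers reach 8023 to 10014 CPM in cells with 3 or more members, while the endothelial markers stay between 13432 and 19078 CPM in the same cells.

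To see which further genes went with the members, UMIs were summed over member-rich cells and over cells with no member in each library and compared with edgeR's quasi-likelihood test with the library as a block and Benjamini-Hochberg adjustment. The members made the classes and were left out. A gene was called at a false discovery rate (FDR) under 0.05 and a fold change (FC) above 2. Of 5097 genes tested, 243 (4.77%) were called and 1841 (36.1%) had an unadjusted p under 0.05. The count of calls was 100 when 1000 UMIs were drawn per cell and the classes were cut again in them, so that the cells compared also changed. It was 851 with no filter on low counts and 378 in the striatal libraries alone. Among the calls 215 (4.22%) were higher and 28 (0.549%) were lower in member-rich cells, and the median log2 FC of all tested genes was -0.02. Since the classes were cut on genes of the same cells, the calls describe what goes together in a droplet.

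All 12 of the other mural markers that passed the filter were called higher, with a median log2 FC of 4.59, and the 2 others (of 14) did not pass. The regulator of G protein signaling Rgs5 had the lowest log2 FC of them, 2.56 (SE 0.07, edgeR FDR = 5.5e-21), with 2864 to 4469 CPM in member-rich cells and 426 to 698 CPM in cells with no member. Cald1, the actin-binding protein caldesmon, stood at 1199 to 2054 CPM against 63.4 to 275 CPM. Higd1b, a protein of mitochondria, stood at 685 to 1179 CPM in member-rich cells and at 20.8 to 55.2 CPM in the others. Tbx18, Ednra, Mcam, Art3, Cspg4, Atp13a5, Gper1 and Ndufa4l2 had 3, 3, 4, 9, 13, 19, 33 and 58 UMIs in all cells with no member. They could pass the filter only through member-rich cells. The count of calls in this list was thus fixed in part by the filter and is no support. Of the smooth muscle markers 5 of 10 were tested and 2 called higher, Tpm2 and Mylk, the myosin light chain kinase, at 169 to 265 CPM against 18.1 to 60.8 CPM. Of the pathway genes of PDGF and Notch signaling, 11 of 17 were tested and 3 called higher, with a median log2 FC of 0.42. These were the Notch target Heyl with a log2 FC of 4.16 (SE 0.33), the ligand Pdgfa with 1.14 (SE 0.19) and the ligand Jag1 with 1.01 (SE 0.14), all higher in 8 of 8 libraries, while the receptor Notch1 had a log2 FC of 0.78 (SE 0.11, under the cutoff of 2-fold) and the endothelial ligand Pdgfb of 0.02 (SE 0.10). Of the TGF-beta and angiopoietin pathway 8 of 16 were tested and 0 called by edgeR, with a median log2 FC of -0.01 and 4 at an unadjusted p under 0.05. Of the contraction and serum response factor pathway 8 of 18 were tested and 2 called higher, Cald1 and Mylk, which the mural and smooth muscle lists also hold. Of the endothelial markers 10 of 10 were tested and 0 called, with a median log2 FC of -0.32, 9 of 10 below 0 and 7 at an FDR under 0.05 without reaching a 2-fold change. Itm2a had the lowest, -0.74 (SE 0.05). The 1 fibroblast marker of 6 that was tested, the collagen gene Col1a2, was called higher, 1 of 4 astrocyte markers (Aldoc) and 1 of 3 neuron markers (Snap25) were called lower, Aldoc at the edge of the cutoff with a log2 FC of -1.001 and higher in member-rich cells in 4 of 8 libraries, and none of 2 oligodendrocyte and 3 blood cell markers was called by edgeR, with 1 and 0 of them at an unadjusted p under 0.05. None of the 6 microglia and macrophage markers passed the filter. Tpm2, Heyl, Col1a2 and Pdgfa, with 12, 8, 8 and 58 UMIs in all cells with no member, also passed it only through member-rich cells. Their calls are thus no support either.

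The 12 genes with the largest FC among those called higher and found in at least 10% of the member-rich cells of every library were Pla1a, Adap2os, Slc19a1, Slc6a20a, Art3, Rasl12, Aspn, Casq2, S1pr3, Enpep, Adap2 and Tbx18. Each was higher in 8 of 8 libraries and had 2 to 10 UMIs in all cells with no member together, against 313 to 1518 in member-rich cells, so that their fitted log2 FC of 5.20 to 6.22 depends on the prior count and is no bound. These genes could pass the filter only through member-rich cells, so their direction was fixed by it. Slc19a1, the reduced folate carrier, was the most abundant, at 179 to 293 CPM against 0 to 9.99 CPM. Slc6a20a, a proline transporter, was at 142 to 307 CPM against 0 to 18.1 CPM. Aspn, the matrix proteoglycan asporin, was at 142 to 260 CPM against 0 to 16.6 CPM. Adap2os is the opposite-strand partner of Adap2, and the counts of the pair cannot be told apart unless the strand was used in counting. Casq2 (calsequestrin), the sphingosine 1-phosphate receptor S1pr3, the aminopeptidase Enpep and the transcription factor Tbx18 were each at 41.0 to 144 CPM in member-rich cells. By the same rule 1 gene was named lower, Slc38a5, a glutamine transporter, at 122 to 298 CPM against 218 to 561 CPM and lower in 8 of 8 libraries (log2 FC -1.02, SE 0.09, edgeR FDR = 2.2e-10). It lies at the edge of the cutoff and was no longer called without PFC Setd1a+/- replicate 1 (log2 FC -0.99) or without striatal WT replicate 1 (-0.96).

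Among the members themselves, the contractile genes Acta2, Tagln and Myh11 were detected together, and Kcnj8 was found with each of them in fewer cells than independence gives, while Abcc9 was mixed. For each of the 45 pairs, the number of endothelial-annotated cells with both genes was divided by the number expected if detection were independent within each library. This ratio was above 1 in 40 pairs, and above it in 8 of 8 libraries in 34 pairs, with a median of 1.58. Cells of more UMIs have more of every gene, and all pairs share these cells. After 1000 UMIs were drawn per cell, 39 pairs were above 1, with a median of 1.70. The contractile genes went together most: Acta2 and Tagln were found together in 72 cells, 12.1 times the expected number, Tagln and Myh11 in 43 cells, 6.93 times, and Acta2 and Myh11 in 70 cells, 6.29 times. Notch3 and Des went with them, Acta2 with Des at 3.58 and Acta2 with Notch3 at 3.10 times. The channel subunits Kcnj8 and Abcc9 were found together in 581 cells, 1.89 times the expected number, in 52.5% of the Kcnj8 cells and 58.9% of the Abcc9 cells. Kcnj8 was found with Acta2 in 29 cells, 0.543 times the expected number, and below it in 7 of 8 libraries. With Tagln it was found in 13 cells, 0.445 times, and below it in 8 of 8. Kcnj8 with Myh11 stood at 0.772, above the expected number in 2 of 8 libraries. Abcc9 with Tagln was at 0.493, below it in 8 of 8. Abcc9 with Acta2 was at 0.979 but above the expected number in 6 of 8 libraries. Abcc9 with Myh11 was at 1.31, found in 78 cells and above it in 5 of 8. With 1000 UMIs drawn per cell, Abcc9 was at 0.655 with Acta2 (7 cells), 0.605 with Tagln (3) and 1.15 with Myh11 (13). Kcnj8 was then at 0.346 with Acta2 (5 cells), 0 with Tagln and 0.500 with Myh11 (8 cells). Myl9 and Vtn, found in most member-rich cells, had ratios of 1.27 to 1.61 with every other member.

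**Figure D4:**
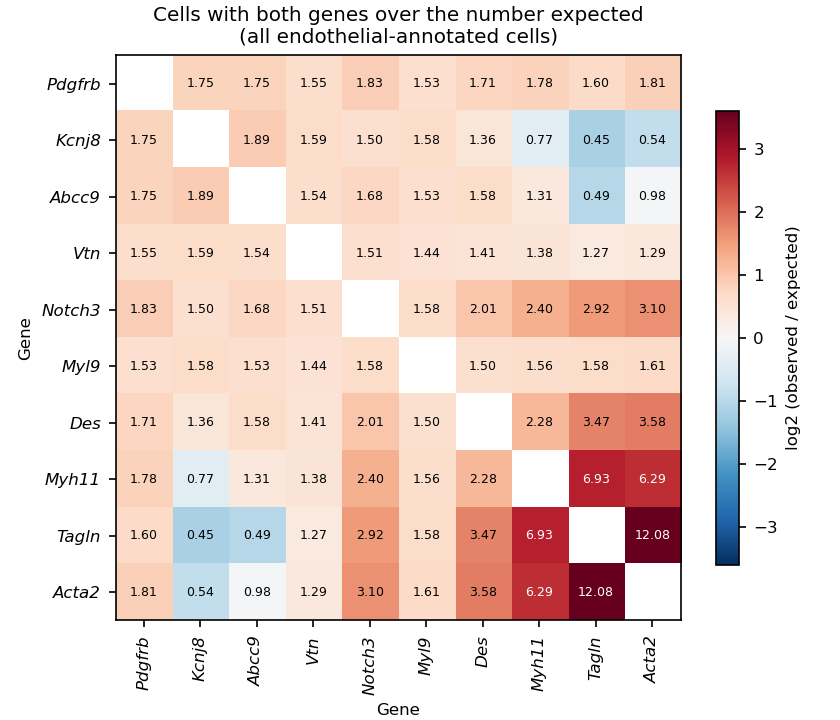
Number of endothelial-annotated cells with both genes over the number expected within libraries, for each pair of mural cell genes (axes), printed as a ratio and colored by its log2. The block of Acta2, Tagln and Myh11 reaches 12.1, and Kcnj8 with Tagln is lowest at 0.445.

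The same split was looked at in cells chosen without the members, by 4 or more of the 14 other mural markers, a choice made after seeing the data. They numbered 2011, between 45.2% and 65.2% of the endothelial-annotated cells of a library, and 1712 of them were also member-rich. Acta2, Tagln or Myh11 was found in 315 of them, 10.96% to 18.6% per library. Of 7286 genes with at least 100 UMIs in these cells, 5.23% were lower and 3.35% higher in every library in the cells with a contractile gene, and the libraries of the classes did not overlap for 0.563% (lower) and 0.755% (higher). Of the 7 other members, 3 were lower and 3 higher in every library, and 2 and 1 of these did not overlap. Kcnj8 was at 27.4 to 228 CPM (median 68.0) in these and at 214 to 616 CPM (median 374) in the cells with none of the 3 genes, lower in 8 of 8 libraries. Vtn was at 1048 to 1638 CPM in these against 1972 to 3522 CPM, groups that do not overlap. Abcc9 was at 84.8 to 207 CPM against 214 to 310 CPM, also without overlap. In the other direction, Notch3 was at 162 to 315 CPM against 97.4 to 157 CPM, again without overlap, and Des, Myl9, Rgs5 and Tbx18 were higher in 8 of 8 libraries. Art3 at 83.9 to 209 CPM against 148 to 348 CPM and Higd1b at 585 to 984 CPM against 708 to 1148 CPM were lower in 7 of 8. Rgs5, Tbx18, Art3 and Higd1b belong to the list that chose these cells. Pdgfrb was at 118 to 393 CPM against 272 to 382 CPM, higher in 4 and lower in 4 libraries, so that the receptor did not follow the split. The cells with a contractile gene were deeper in 8 of 8 libraries, with a median of 2277 to 4806 UMIs against 2166.5 to 3424, and the split was not repeated at an equal depth. Endothelial markers were present with and without the contractile genes. Among the member-rich cells, Cldn5 was found in 90.8% of the 109 cells with 2 or 3 of Acta2, Tagln and Myh11, and Pecam1 in 66.1%, pooled over libraries. In the 1470 with none of the 3 genes these were 93.7% and 60.5%. The markers did not move together. Emcn was found in 33.9% against 71.4% and Kdr in 37.6% against 52.2%. Cdh5 was found in 65.1% against 51.8% and Tek in 60.6% against 46.1%. Itm2a stood at 1502 against 5857 CPM and Flt1 at 2176 against 1897 CPM.

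The comparison of genotypes asks whether losing 1 copy of the H3K4 methyltransferase gene Setd1a changed the members in the endothelial group. In the PFC none of the 10 passed the cutoff of the study (FDR under 0.05 and FC above 1.5). The edgeR test called 0 of 8777 genes (0%), with 154 (1.75%) at an unadjusted p under 0.05, of which 0 were members, and DESeq2 also called 0, with 23 at an unadjusted p under 0.05. Pairing the replicates with a block gave 16 calls, none a member. Kcnj8 had 218 and 160 CPM (WT) and 386 and 171 CPM (Setd1a+/-). Its log2 FC of 0.61 (SE 0.35, edgeR FDR = 0.999) rested on Setd1a+/- replicate 1, without which it was -0.06. Vtn had 1643 and 1532 CPM (WT) and 1746 and 1848 CPM (Setd1a+/-), the 1 member of 10 whose libraries did not overlap, where 27.8% of all tested genes did not (log2 FC 0.23, SE 0.24). Acta2 was at 33.6 and 51.7 against 28.5 and 43.4 CPM, and Tagln at 6.01 and 19.9 against 3.00 and 14.5 CPM. In both genotypes replicate 1 was the lower for these 2 contractile genes and for Des, at 19.0 and 45.1 against 8.26 and 36.2 CPM. Within both replicate pairs these 3 genes were lower in the Setd1a+/- library, 5 members (Pdgfrb, Kcnj8, Abcc9, Vtn and Myl9) were higher there, and Notch3 and Myh11 were mixed. How many of all genes kept 1 direction in both pairs was not counted, so nothing is read from these numbers. With the replicate block the log2 FCs were -0.20 (Acta2), -0.64 (Tagln) and -0.70 (Des), none of them called. The median log2 FC of the members was 0.08 beside 0.00 over all tested genes (-0.0036).

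In the striatum 0 of 10 members passed the cutoff (FC above 2), and edgeR called 0 of 10358 genes (0%), with 229 (2.21%) at an unadjusted p under 0.05, of which 0 were members. DESeq2 called 1 gene and had 40 at an unadjusted p under 0.05, and the replicate block gave 25 calls, in neither case a member. Acta2 had 61.0 and 23.0 CPM (WT) and 72.7 and 71.0 CPM (Setd1a+/-), with a log2 FC of 0.79 (SE 0.38, edgeR FDR = 1.00). Without WT replicate 2, the lowest library, it was 0.26. Myh11 was at 26.6 and 27.0 against 36.9 and 34.6 CPM (log2 FC 0.46, SE 0.26), and Tagln at 19.3 and 8.55 against 20.4 and 23.7 CPM (log2 FC 0.64, SE 0.43). These 3 contractile genes were the members without overlap, 3 of 10 beside 30.6% of all tested genes, a share near the background. Kcnj8 was at 225 and 195 against 238 and 126 CPM and Vtn at 1948 and 1724 against 1844 and 1322 CPM. Within both replicate pairs Abcc9, Acta2, Tagln and Myh11 were higher in the Setd1a+/- library and Pdgfrb, Vtn and Myl9 were lower. Kcnj8, Notch3 and Des were mixed. As in the PFC, the genes keeping 1 direction in both pairs were not counted, so nothing is read from this. The members' median log2 FC was 0.02 beside 0.00 over all genes (-9.1e-05). The difference of the genotype effect between the tissues, tested as an interaction in edgeR, was called for 0 of 10652 genes (0%), with 221 (2.07%) at an unadjusted p under 0.05, of which 0 were members. Among the 10 members its largest value was that of Tagln, 1.45 (SE 1.05).

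Between the tissues, 0 of 10 members were called, where edgeR called 588 of 9709 genes (6.06%), 474 of them (4.88%) lower and 114 (1.17%) higher in the PFC. That count was 139 when 1000 UMIs were drawn per cell and 1537 with no filter on low counts. With 1 library left out it ran from 225 (without PFC WT replicate 1) to 1001 (without PFC WT replicate 2), and it was 327 and 265 without striatal WT replicate 1 and 2. At an unadjusted p under 0.05 were 3 of the 10 members and 20.8% of all tested genes. Myl9 was at 483 to 598 CPM in the PFC and at 661 to 831 CPM in the striatum (log2 FC of PFC over striatum -0.51, SE 0.16, edgeR FDR = 0.074). Notch3 was at 69.1 to 92.8 against 95.4 to 110 CPM (log2 FC -0.35, SE 0.15, FDR = 0.215 in edgeR). These 2 of 10 were the members whose libraries did not overlap, beside 13.1% of all tested genes. Des was at 8.26 to 45.1 against 31.0 to 55.1 CPM (log2 FC -1.01, SE 0.39, edgeR FDR = 0.157), and it passed the cutoff without PFC WT replicate 2 (log2 FC -1.41). Kcnj8 and Vtn had log2 FCs of 0.20 (SE 0.26) and -0.04 (SE 0.16). The contractile members had a median log2 FC of -0.56, the 2 channel genes 0.08, and all tested genes 0.01. For Tagln and Des the low PFC values were those of both replicate 1 libraries, at 6.01 and 3.00 CPM and at 19.0 and 8.26 CPM, while PFC replicate 2 lay at 19.9 and 14.5 CPM and at 45.1 and 36.2 CPM, within the striatal ranges of 8.55 to 23.7 and 31.0 to 55.1 CPM. The tissue comparison had genotype as a covariate. Of the other lists, 0 of 14 mural markers and 0 of 8 smooth muscle markers were called, 1 of 10 endothelial markers was called higher, and 2 of 5 fibroblast, 1 of 4 astrocyte, 3 of 5 oligodendrocyte and 4 of 5 neuron markers were called lower in the PFC. The part of these other cell types in the members' differences was not tested. The tissues were dissociated in separate preparations, so tissue and preparation cannot be told apart.

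Droplet barcodes that the authors did not annotate also held the members. Of 35830 such barcodes with at least 500 UMIs, 1072 had 3 or more members, beside the 1782 annotated cells. Of these 1072, 884 had under 800 genes, 126 had more genes but over 10% mitochondrial UMIs, and 62, all in the PFC, met both cutoffs of the methods. Their median depth was 842 to 1077 UMIs by library. The members made up 7125 to 16108 CPM of these barcodes against 4405 to 5974 CPM of the annotated member-rich cells, and the endothelial markers 5402 to 10340 CPM against 13432 to 19078 CPM, groups without overlap in both cases. At most 1 endothelial marker was found in 497 of the 1072 (46.4%, 95% Wilson interval 43.4 to 49.4) and in 16 of the 1782 annotated cells (0.898%). When 500 UMIs were drawn from each, these were 581 (54.2%) and 87 (4.88%), 31.9% to 63.5% by library against 1.49% to 8.82%. These counts at 500 UMIs were added after seeing the data. In the 497 barcodes Vtn was found in 97.8%, Myl9 in 92.2%, Rgs5 in 93.0% and Kcnj8 in 71.4%, and 484 of them had under 800 genes. Kcnj8 stood at 1708 CPM there, pooled over libraries, against 391 CPM in the annotated member-rich cells, and Vtn at 13824 against 2789 CPM. The members chose both sets of barcodes, and a low count of endothelial markers also chose the 497, so that the levels of these genes there are a description fixed in part by the choice.

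**Figure D5:**
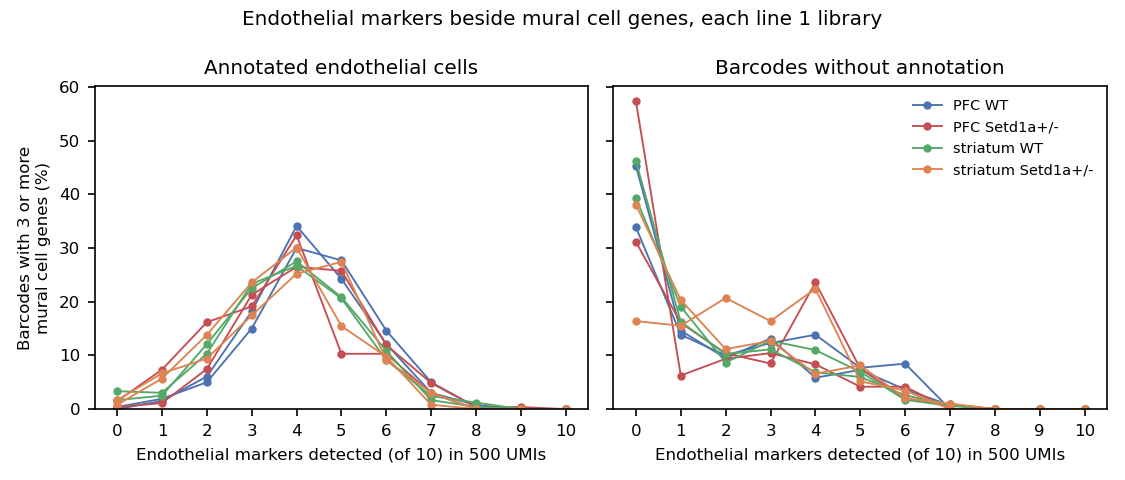
Percent of barcodes with 3 or more mural cell genes (vertical) by the number of 10 endothelial markers detected after 500 UMIs were drawn from the barcode (horizontal), each line 1 library colored by group, for annotated endothelial cells (left) and barcodes without annotation (right). At most 1 marker is found in 4.88% of the former and in 54.2% of the latter over all libraries. The mural cell genes were counted at full depth.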

How the data were processed

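Single cells of mouse PFC and striatum were profiled on the 10x Chromium platform. The deposited matrices hold raw UMI counts per gene and barcode, all droplets included, which the authors made with Cell Ranger 3.0.2 (mm10, per the submitters' processing notes). The authors also deposited tables with the cell type of each kept cell (at least 800 genes, at most 10% mitochondrial UMIs) and its UMAP score on each axis, made with Seurat 3.2.0. The UMAP scores entered no result. Their gene-by-cell tables name no genes and were not used. No doublet caller was run.

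UMIs were summed per library over endothelial-annotated cells and tested in edgeR 4.0.16 (R 4.3.3, TMM, filterByExpr with a minimum count of 10, quasi-likelihood test), with the study's cutoffs on FDR and FC, and the scripts were tested on simulated data. Each SE of a log2 FC is the absolute log2 FC divided by the square root of the quasi-likelihood F statistic, not a separate estimate. The study tested single cells with DEsingle, which was not run. Shares were compared with exact permutation tests (scipy 1.17.1). Alternatives were other size factors, no filter, DESeq2 1.42.0, thinning to 1000 UMIs per cell, left-out libraries, a replicate block and other cuts. Cells chosen by 4 or more other mural markers, with the counts over all genes in them, and barcodes drawn to 500 UMIs, were added after seeing the data. Genes named in the member-rich comparison had the largest FC among calls found in at least 10% of cells of every library, up to 12 higher and 8 lower, and list examples are those of high CPM or called genes.

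The methods put 1 WT and 1 mutant library in each replicate, so same-numbered libraries were taken as pairs. Their deviations from the group means correlated at r = 0.34 in the PFC and r = 0.33 in the striatum across 10652 genes, which are not independent. The members and lists were chosen with earlier results of these data known. With 2 libraries of pooled mice per group, p-values measure the spread between these libraries. Gene positions and promoters are from RefSeq (GRCm38.p6).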

Additional observations from a re-analysis of the deposited data

Results flagged for a closer look

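Of the barcodes left out of the authors' annotation, 497 with at least 500 UMIs held 3 or more of the mural cell genes and at most 1 of 10 endothelial markers, a signal in data that no comparison between genotypes or tissues used. They came from all 8 libraries, 27 to 98 in each. Dixon's test at the 95% level flagged no library among the 4 of its tissue in 22 checks of member levels and member-rich shares, where chance would flag about 1 in 20. With 4 libraries it needs a wide gap: Kcnj8 at 386 CPM in PFC Setd1a+/- replicate 1 (160 to 218 CPM in the other 3) and Acta2 at 23.0 CPM in striatal WT replicate 2 (61.0 to 72.7 CPM) did not meet it.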

How the results depend on the processing

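No member was called for genotype under any alternative that kept all libraries. In simulated data, with the same dispersion for every gene, this design called 7.69% (PFC) and 2.04% (striatum) of genes changed 2-fold. In the striatum a 2-fold change is the cutoff itself. Of genes changed 4-fold it called 81.0% (PFC) and 90.4% (striatum). An absence of calls thus says little about changes near 2-fold. A genotype with a library left out has 1 library in a tissue. Calls for genotype in those runs rest on the spread of the other genotype alone. Under the replicate block, which pairs same-numbered libraries, the calls were 16 in the PFC, 25 in the striatum, 795 between tissues and 0 for the interaction. With no filter on low counts they were 7, 19, 1537 and 5, and 851 for member-rich cells. DESeq2 called 1 gene in the striatum. Thinning to 1000 UMIs gave 139 calls between tissues and 100 for member-rich cells, whose classes were cut again. For member-rich cells the striatal libraries alone gave 378. With 1 library left out, the calls ran from 1 to 42 in the PFC (42 without Setd1a+/- replicate 2), from 8 to 102 in the striatum (102 without Setd1a+/- replicate 1, 74 without Setd1a+/- replicate 2), from 225 (without PFC WT replicate 1) to 1001 (without PFC WT replicate 2) between tissues, and from 0 to 1 for the interaction. The cause of these moves was not tested.

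Des passed the tissue cutoff with no filter (log2 FC -0.99) and without PFC WT replicate 2 (-1.41). Its striatal genotype log2 FC was -0.030 with library size only, -0.018 with no filter, -0.044 in DESeq2 and -0.046 with the replicate block. For the tissue difference thinning gave 0.030 for Abcc9 and 0.044 for Myh11. Slc38a5 was not called with library size only (-0.98), with 2 or more members (-0.96) or in the PFC alone (-0.98). The share difference was -4.37 points in the PFC and -3.45 in the striatum without Vtn and Myl9, -0.15 in the striatum after thinning, and -1.55 to 6.58 in the PFC with 1 library left out.

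With 1 library left out, these log2 FCs of members changed sign, and none was called. The range for PFC genotype was -1.84 to 0.37 (Des), -0.076 to 0.26 (Myl9), -0.059 to 1.02 (Kcnj8), -0.042 to 0.19 (Abcc9), -1.93 to 0.40 (Tagln), -0.17 to 0.28 (Myh11), -0.088 to 0.35 (Notch3), -0.56 to 0.17 (Acta2). The range for striatal genotype was -0.58 to 0.25 (Des), -0.20 to 0.13 (Myl9), -0.71 to 0.21 (Kcnj8), -0.022 to 0.31 (Abcc9), -0.44 to 0.035 (Vtn), -0.045 to 0.13 (Notch3), -0.23 to 0.23 (Pdgfrb). The range between tissues was -0.12 to 0.35 (Kcnj8), -0.092 to 0.048 (Abcc9), -0.16 to 0.041 (Vtn). The range for the interaction was -0.39 to 1.83 (Des), -0.27 to 0.088 (Myl9), -0.069 to 0.27 (Abcc9), -0.27 to 0.14 (Notch3), -0.41 to 0.052 (Pdgfrb).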
